A study of Mus musculus with 3 samples.

Results

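The genes described here encode axon and vessel guidance cues and their receptors. They were chosen by symbol: ephrins (Efna, Efnb) and Eph receptors (Epha, Ephb), Slit and Robo genes and netrins (Ntn) with a number after the prefix, and every symbol starting with Sema, Plxn or Unc5. The rule used no measured value. It took 68 of 18193 genes on the array, 65 of them in the named families, with 35 ligands and 30 receptors. The other 3 share a prefix without a guidance role: Unc50, a membrane protein of the Golgi, Unc5cl, a death domain protein, and Plxna4os1, an antisense transcript of a plexin gene.

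Guidance cues tell a migrating cell or growth cone where to go, by attraction or repulsion. Ephrins sit in the membrane of one cell and bind Eph receptor tyrosine kinases on its neighbour, and both cells receive a signal. Semaphorins, secreted in class 3 and mostly anchored in the other classes, act through plexins, often with a neuropilin as co-receptor. Slits bind Robo receptors, and netrins bind Dcc or the repulsive Unc5 receptors. Many of these genes are used again in blood vessels, where Ephb4 marks veins, Efnb2 marks arteries, and Plxnd1, Robo4 and Unc5b are receptors of endothelial cells.

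RNA was profiled on Affymetrix arrays from cells of A2.snail, a single mouse embryonic stem cell line in which doxycycline switches on Snail, a repressor that drives epithelial cells towards a mesenchymal state. All cells had differentiated as embryoid bodies in medium with 10% FCS and the Wnt inhibitor DKK1, and were sorted at day 3 by surface Flk1, a VEGF receptor that Kdr encodes. The 3 groups had 1 array each. Untreated Flk1- cells had received 0 ng/mL doxycycline, while Snail-induced Flk1- and Snail-induced Flk1+ cells came from cultures given 250 ng/mL doxycycline on day 2. Neither untreated Flk1+ cells nor a line lacking the Snail cassette but given doxycycline were analysed here. Effects of doxycycline and Snail therefore cannot be told apart, nor can those of Snail and of the Flk1 gate where Flk1+ cells are set against untreated Flk1- cells. Single arrays leave every difference without a replicate, and p-values are not given.

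Values are probe set intensities on a linear scale. A gene is represented by its brightest probe set and counts as measured where at least 1 array reached 25.6 units, called the floor, which 40% of all values lie below; 57 of the 68 guidance genes and 13969 of all 18193 genes did. Differences are those of log2(intensity + 9.53), and a gene is counted as higher or lower from 2-fold on this scale. If the lower of the pair was below the floor, the ratio of the higher value to the floor is given as "at least". That ratio leaves out the added 9.53, so it can exceed the fold on the log2 scale and is not compared with other folds. An intensity depends on the probe sequences, so it is compared between arrays for one gene and never between genes. In sorted cell populations, fewer cells of a type and less RNA per cell cannot be told apart.

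Kdr, the sorted gene, stood at 10.5 and 9.73 in the Flk1- arrays (untreated, then Snail-induced) and at 404 in the Flk1+ array. Snai1 had 1 probe set, at 29.1, 13.1 and 19.8 in that order, so the array does not show the induction that the labels state. Where this probe set lies relative to the introduced gene is not known here, and "Snail-induced" or "induction" names the label throughout. Among markers, each of 11 endothelial markers, Kdr included, was 2-fold or more above the Snail-induced Flk1- array in Flk1+ cells, with summed intensities of 636, 1158 and 11011 over the 3 arrays in the order above. Kdr, Pecam1, Cdh5, Tie1 and Erg reached the floor in the Flk1+ array alone. Against the floor, Pecam1 and Tie1 were at least 1.75-fold and 1.67-fold higher there. Over all measured genes, 2.95% were higher and 2.03% lower after induction. In Flk1+ against Snail-induced Flk1- cells these shares were 4.85% and 4.89%. Epithelial markers summed to 15920, 6114 and 1261, with 7 of 7 lower after induction and 6 of 7 lower again in Flk1+ cells. Mesenchymal markers summed to 4204, 7734 and 13257, with 5 and then 2 of 7 higher, and pluripotent markers to 22333, 24449 and 13995, with 0 and then 3 of 7 lower. Of 8 neural markers, 6 were measured and 0 were past 2-fold after induction, with sums of 1734, 1527 and 1094; Neurog2 and Dcx stayed under the floor on every array. Neural crest markers summed to 923, 1116 and 456, feeder fibroblast markers to 386, 567 and 299, and visceral endoderm markers to 373, 479 and 197. Measured were 5 of 5, 4 of 6 and 2 of 5 of these, with Col1a1, Postn, Afp, Ttr and Apoa1 under the floor on every array. A few bright genes weigh most in such sums. Foxd3, of the neural crest list, gave 592, 656 and 99.8, Dcn, of the feeder list, 111, 276 and 58.6, and Cubn, of the endoderm list, 220, 257 and 44.0. Other measured genes of these lists went both ways. Sox10 (76.6, 87.2 and 92.7), Tfap2a (117, 120 and 126) and Col1a2 (76.7, 93.5 and 132) were highest in the Flk1+ array. Pax3, Ngfr, Lum, Thy1 and Amn had lower values in Flk1+ than in Snail-induced Flk1- cells. The part of these cell types in the guidance gene differences was not tested.

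Snail-induced and untreated Flk1- cells were at least 2-fold apart in 10 of the 57 measured guidance genes, against 4.98% of all measured genes. Higher were 7 of them, Sema6d, Efnb1, Ephb1, Epha4, Epha7, Slit3 and Sema5a, which is 12.3% against 2.95% of all measured genes. Lower were 3, the semaphorins Sema3c, Sema4d and Sema3e, which is 5.26% against 2.03%. The median log2 difference was 0.20 over the guidance genes and 0.04 over all measured genes. Between the Flk1+ and Flk1- cells of the induced culture, 10 of the 57 measured guidance genes were 2-fold apart, against 9.74% of all measured genes. Of these, 5 were higher in Flk1+ cells (8.77% against 4.85%) and 5 were lower (8.77% against 4.89%). Sema6d, Plxnd1, Unc5c, Plxnc1 and Ephb4 were the higher ones, and Epha4, Sema4d, Sema4b, Ephb3 and Epha1 the lower ones. The median here was 0.01 against 0.0005 over all measured genes. Comparing Flk1+ with untreated Flk1- cells joins both steps and adds no independent evidence. It gave 15 of the 57 measured guidance genes 2-fold apart, against 14.5% of all measured genes, with a median of 0.14 against 0.01. Of these, 12 were higher (21.1% against 8.10%) and 3 lower (5.26% against 6.41%). Epha3 and Robo4, among the 12, counted as measured through the Flk1+ array alone. With values raised to the floor they were not 2-fold apart. In all, 22 genes were past 2-fold in at least 1 comparison, and the first 2 comparisons share the Snail-induced Flk1- array.

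**Figure D1:**
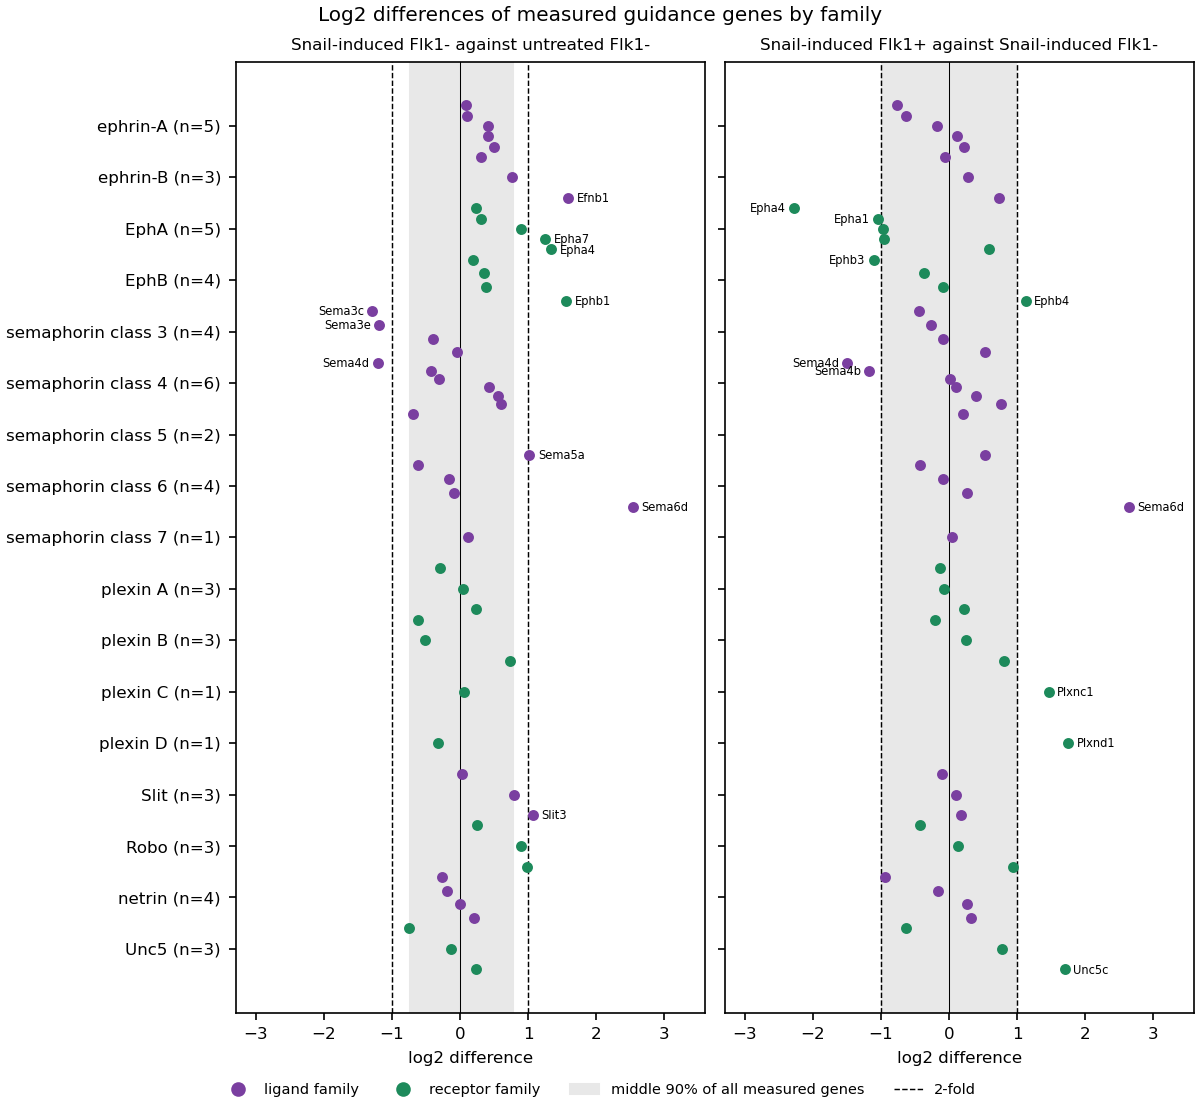
Each point is 1 measured guidance gene, placed by its log2 difference in Snail-induced Flk1- against untreated Flk1- cells (left) and in Snail-induced Flk1+ against Snail-induced Flk1- cells (right), with rows for the families, ligand families in purple, receptor families in green, the middle 90% of all measured genes shaded and 2-fold dashed. Sema6d lies farthest to the right in both panels, at 2.54 and 2.65, while Epha4 lies at 1.34 on the left and -2.28 on the right.

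Ligands and receptors were counted apart. Among the 32 measured ligands, 4 were higher (12.5%) and 3 lower (9.38%) after Snail induction. Among the 23 measured receptors 3 were higher (13%) and 0 lower. Over all measured genes these shares were 2.95% and 2.03%. Medians were 0.10 for ligands and 0.24 for receptors. With the floor at the 60th percentile they were 0.41 and 0.23, the other order, and over the alternatives the ligand median ran from -0.0011 to 0.41. In Flk1+ against Snail-induced Flk1- cells the receptors held more of the genes past 2-fold, with 4 higher (17.4%) and 3 lower (13%). Among ligands 1 was higher (3.12%) and 2 were lower (6.25%), where 4.85% and 4.89% of all measured genes were. Their medians were -0.07 for receptors and 0.08 for ligands. Against untreated cells, the Flk1+ array had 7 receptors higher (30.4%) and 0 lower, and 5 ligands higher (15.6%) and 3 lower (9.38%). Over all measured genes these shares were 8.10% and 6.41%. The 7 receptors include Epha3 and Robo4, which reached the floor in the Flk1+ array alone. These counts are descriptions of 1 array per group, and the difference between ligands and receptors was not tested.

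Of the ephrins, the membrane-bound ligands of Eph receptors, 8 of 8 had a log2 difference above 0 after induction by their brightest probe sets, with a median of 0.41, where 7665 of all 13969 measured genes were above 0. Centring of the arrays left 7 of 8 above 0, with Efna1 below, and 5942 of all genes. Efnb1, a transmembrane ephrin, was the one past 2-fold (12.5% of the ephrins higher, against 2.95% of all measured genes). Its intensities were 72.9 (untreated Flk1-), 240 (Snail-induced Flk1-) and 292 (Flk1+), an order kept for the values of every gene that follows, so both Snail-induced arrays were high and the untreated array low. Efnb1 was 3.02-fold higher after induction and 3.66-fold higher in Flk1+ than in untreated cells. Its other 2 probe sets gave log2 differences of 2.04 and 1.65 for induction. Efnb3, another transmembrane ephrin, gave 72.9, 131 and 223, stepping up at each stage to 2.82-fold in Flk1+ against untreated cells. Efnb2, the arterial ephrin, gave 454, 563 and 540, and its second probe set gave 429, 501 and 544. Its other 2 disagreed for induction, with log2 differences of -0.63 (216, 136 and 225) and 1.11 (9.33, 31.2 and 22.6).

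The ephrin-A genes, whose products are held in the membrane by a lipid anchor, lay within 2-fold in every comparison by their brightest probe sets. Efna5 gave 454, 646 and 756, and Efna2 gave 512, 686 and 742, with the untreated array lowest in both. Efna4 stood at 176, 237 and 210. Efna3 (197, 212 and 121) and Efna1 (82.1, 88.1 and 53.2) were lowest in the Flk1+ array, at log2 differences of -0.77 and -0.64 from the Snail-induced Flk1- array. The second Efna3 probe set, at 179, 120.5 and 127, was lowest in Snail-induced Flk1- cells instead, with -0.53 for induction and 0.07 for the gate.

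Among the Eph receptors, all 9 measured genes were above 0 after induction (median 0.38), as were 7665 of all 13969 measured genes. Of the 9, 3 were higher by 2-fold (33.3%, against 2.95% of all measured genes). From Flk1- to Flk1+ cells of the induced culture 7 of 9 were below 0 (median -0.95), as were 6974 of all 13969 measured genes. By 2-fold, 3 were lower (33.3%, against 4.89% of all measured genes) and 1 was higher (11.1%, against 4.85%). Ephb4 was above 0 at both steps, as was Epha3. Epha3 was under the floor on both Flk1- arrays, so its sign for induction, counted among the 9, carries little weight. The other Epha3 probe sets were under the floor on every array. The steps share the Snail-induced Flk1- array, so a high value there alone gives opposite signs. Epha4, which binds ephrins of both classes, gave 95.7, 257 and 45.5. It was 2.53-fold higher in Snail-induced than in untreated Flk1- cells and 4.85-fold lower in Flk1+ than in Snail-induced Flk1- cells. The next 3 of its 5 probe sets had the same signs, at 1.34, 1.44 and 0.88 for induction and -1.52, -1.98 and -1.74 for the Flk1 gate; the last was under the floor on every array, and with the mean of all 5 induction gave 0.93, short of 2-fold. Epha7, a receptor of ephrin-A ligands, had the same shape, with 138, 342 and 170, and was 2.38-fold higher after induction and 1.95-fold lower in Flk1+ cells. The 3 brightest of its 4 probe sets lay between 1.09 and 1.34 for induction and between -0.78 and -1.02 for the gate.

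Ephb1, a receptor for transmembrane ephrins, gave 41.9, 143 and 133. Both Snail-induced arrays were high, 2.96-fold and 2.78-fold above the untreated one, and 1.07-fold apart from each other. Ephb4, the venous receptor of Efnb2, gave 139, 179 and 403 and was 2.18-fold higher in Flk1+ than in Snail-induced Flk1- cells. Ephb3 gave 303, 349 and 157 and was 2.15-fold lower in Flk1+ cells, while Epha1 gave 74.6, 89.2 and 38.6 and was 2.05-fold lower. Both were highest in the Snail-induced Flk1- array and lowest in the Flk1+ array. With the mean of its probe sets Epha1 gave -0.57 for the gate, short of 2-fold. Epha2, an Eph receptor of epithelial cells, had a like course at 73.6, 93.6 and 43.7 with a log2 difference of -0.95 for the gate, short of 2-fold. Epha3 gave 4.29, 16.3 and 29.5, which reaches the floor in the Flk1+ array alone, so it was at least 1.15-fold higher there. Ephb6, whose kinase is inactive, stood at 59.1, 79.8 and 59.9. Epha5, Epha6, Epha8 and Epha10 were under the floor on every array.

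**Figure D2:**
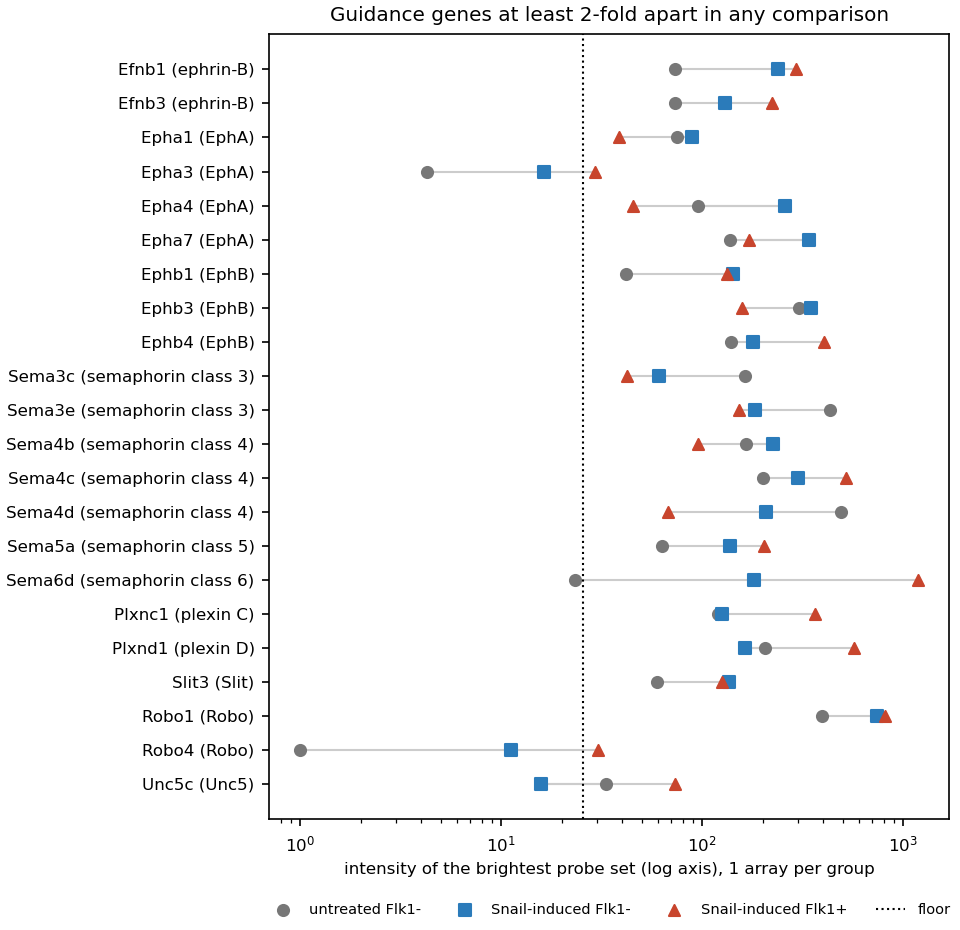
Intensity of the brightest probe set (log axis) on the 3 arrays for the 22 guidance genes at least 2-fold apart in any comparison, 1 point per array, with the floor of 25.6 dotted. Sema6d runs from 23.2 to 1187, and Sema3c, Sema3e and Sema4d run the other way, with the untreated array highest.

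The semaphorins went both ways, and 1 of them, Sema6d, had the largest difference of any measured guidance gene in each comparison. Of 17 measured, 2 were higher (11.8%) and 3 lower (17.6%) after induction, with a median of -0.16. Over all measured genes these shares were 2.95% and 2.03%. Sema6d, a transmembrane semaphorin known from heart development, where its receptor Plxna1 pairs with Kdr, gave 23.2, 181 and 1187. The untreated array lay under the floor, the Snail-induced Flk1- array well above it, and the Flk1+ array highest. Sema6d was at least 7.10-fold higher after induction, 6.27-fold higher in Flk1+ than in Snail-induced Flk1- cells, and at least 46.5-fold higher in Flk1+ than in untreated cells. The log2 differences were 2.54, 2.65 and 5.19.

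The Sema6d values for induction and for Flk1+ against untreated cells rest on 1 probe set. Its second probe set gave 43.3, 31.7 and 81.6, with a log2 difference of -0.36 for induction and 1.14 for the Flk1 gate. The third (26.5, 14.4 and 24.5) and the fourth, under the floor on every array, were also lower after induction, at -0.59 and -0.83, and higher in Flk1+ cells, at 0.51 each. All 4 probe sets thus agreed in sign for Flk1+ against Snail-induced Flk1- cells, and the brightest stood alone for induction. For Flk1+ against untreated cells the other 3 gave 0.79, -0.08 and -0.32, against 5.19 for the brightest. With the mean of all its probe sets, the log2 difference for induction was 0.19.

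Sema5a, a transmembrane semaphorin with thrombospondin repeats, gave 63.0, 138 and 202 and was 2.03-fold higher after induction, just past the threshold. Quantile normalisation and centring of the arrays put it at 0.97 and 0.92 on the log2 scale, short of 2-fold, and the mean of its probe sets gave 0.86 for induction and 0.67 for Flk1+ against untreated cells. Sema4c, a ligand of B plexins, gave 200, 300 and 517 and was 2.51-fold higher in Flk1+ than in untreated cells, with neither single step past 2-fold.

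The 3 semaphorins that were lower after induction had lower values again in the Flk1+ array. Sema4d, a ligand of Plxnb1 and Plxnb2, gave 490, 207 and 67.4 and was 2.31-fold lower after induction, 2.81-fold lower in Flk1+ than in Snail-induced Flk1- cells and 6.49-fold lower over both. Its other 2 probe sets were under the floor. Sema3e, the secreted ligand of Plxnd1, gave 431, 184 and 152, which is 2.27-fold lower after induction and 2.73-fold lower in Flk1+ than in untreated cells. All 4 Sema3e probe sets had the same sign, from -0.66 to -1.19 for induction. Sema3c, a secreted semaphorin of the cardiac outflow tract, gave 163, 61.2 and 42.5 and was 2.44-fold lower after induction. Its second probe set, at 38.3, 28.2 and 53.5, had a log2 difference of -0.34 for induction and was highest in the Flk1+ array, against the first. With the mean of all probe sets, Sema3c, Sema3e and Sema4d gave -0.82, -0.98 and -0.68 for induction, short of 2-fold, as were Sema4d for the gate (-0.52) and Sema3c for Flk1+ against untreated cells (-0.67).

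Among the other class 4 genes, Sema4b gave 165, 226 and 95.0 and was 2.25-fold lower in Flk1+ than in Snail-induced Flk1- cells, or -0.50 log2 units with the mean of its probe sets. Sema4g gave 75.5, 119 and 120, Sema4a 216, 158 and 212, and Sema4f 66.2, 51.7 and 56.1. Second probe sets differed from these: that of Sema4a (34.8, 51.8 and 20.03) gave -1.05 for the gate against 0.40, and that of Sema4f (54.3, 29.3 and 7.55) gave -1.18 against 0.10, and -1.90 against -0.21 for Flk1+ against untreated cells. Of the remaining semaphorins, Sema6a (108, 66.6 and 62.3) and Sema5b (130, 76.8 and 90.4) were highest in untreated cells, at -0.62 and -0.69 for induction. Sema6c, Sema6b, Sema7a and Sema3b stayed within 2-fold, at 103, 96.0 and 118, at 62.0, 54.4 and 37.9, at 55.9, 61.2 and 63.8, and at 38.2, 37.0 and 34.3. Sema3a, Sema3d and Sema3g were under the floor on every array.

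Sema3f, a secreted semaphorin that repels vessels, depended on the probe set. Its brightest, of a kind that can read several transcripts, gave 347, 262 and 383. The other 2 gave 44.4, 101 and 243, and 41.0, 28.6 and 109, with log2 differences of 1.19 and 1.63 for Flk1+ against Snail-induced Flk1- cells, and 2.23 and 1.23 against untreated cells. By those, Sema3f was highest in Flk1+ cells, while the brightest probe set gave 0.53 and 0.14.

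**Figure D3:**
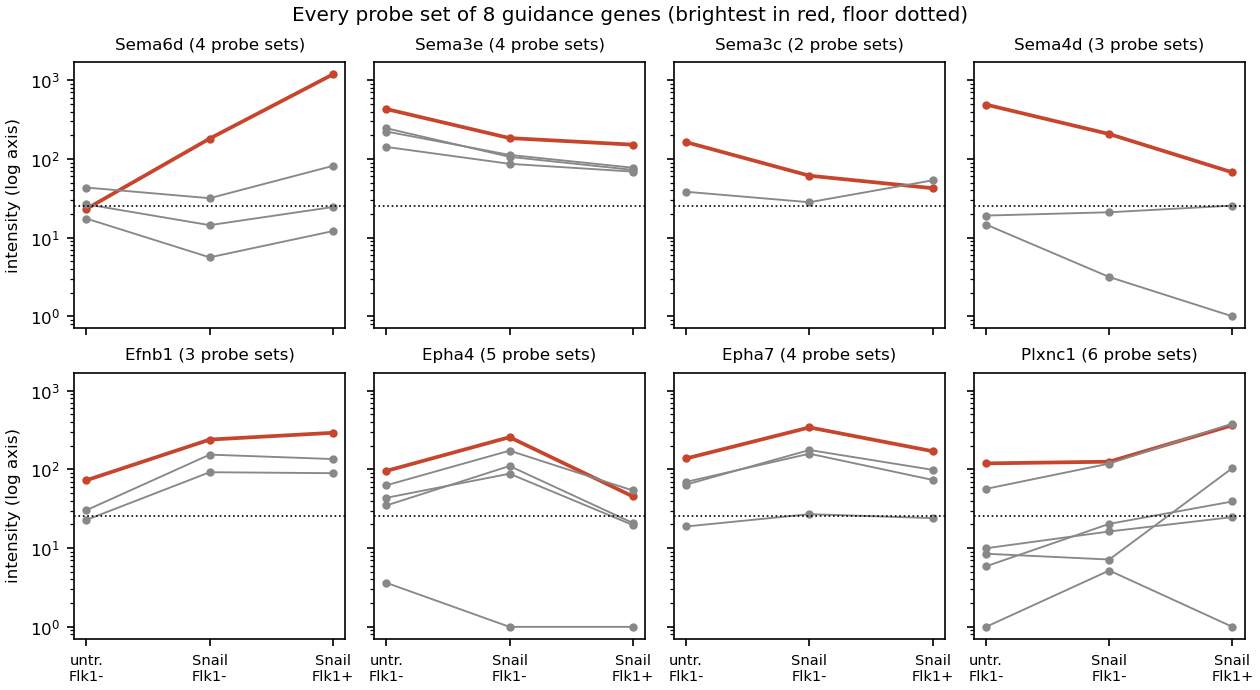
Every probe set of 8 guidance genes on the 3 arrays (log intensity axis), with the brightest probe set in red, the others in grey and the floor dotted. The probe sets of Sema3e, Efnb1 and the brighter ones of Epha4 and Epha7 run in parallel, while the brightest Sema6d probe set climbs from 23.2 to 1187 apart from the other 3.

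Promoter sequences are shown for genes on both sides of these differences: Sema3c and Sema3e, lower after induction, Sema6d, higher at both steps, and Epha1, lower in Flk1+ cells. Snail proteins bind the E-box CAGGTG, and this motif, read on both strands (CAGGTG or CACCTG), was looked for in windows of 300 bases, from 250 before to 50 after a RefSeq gene start (GRCm38.p6). A window was found for 58 of the 68 guidance genes. The motif was in 10 of their 74 windows (13.5%) and in 6640 of all 32851 windows (20.2%). It was in 0 of the 5 windows of Sema3c, Sema3e and Sema4d, in 1 of the 9 windows of the genes higher after induction, and in 8 of the 50 windows of measured genes that were neither. The 250 bases before each start are printed 5' to 3' on the strand of the gene, with the motif in capitals.
Sema3c, chr5:17574566-17574815, plus strand: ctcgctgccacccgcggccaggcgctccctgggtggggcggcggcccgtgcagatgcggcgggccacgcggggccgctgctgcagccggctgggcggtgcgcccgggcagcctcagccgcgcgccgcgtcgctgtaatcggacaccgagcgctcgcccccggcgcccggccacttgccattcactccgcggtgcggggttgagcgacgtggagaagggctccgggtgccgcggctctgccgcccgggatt
Sema3e, chr5:14025026-14025275, plus strand: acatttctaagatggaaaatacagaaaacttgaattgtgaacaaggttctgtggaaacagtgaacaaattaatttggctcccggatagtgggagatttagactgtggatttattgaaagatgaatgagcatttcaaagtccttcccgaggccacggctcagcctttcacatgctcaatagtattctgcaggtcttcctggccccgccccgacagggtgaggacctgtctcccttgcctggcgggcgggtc
Sema6d, first start, chr2:124089719-124089968, plus strand: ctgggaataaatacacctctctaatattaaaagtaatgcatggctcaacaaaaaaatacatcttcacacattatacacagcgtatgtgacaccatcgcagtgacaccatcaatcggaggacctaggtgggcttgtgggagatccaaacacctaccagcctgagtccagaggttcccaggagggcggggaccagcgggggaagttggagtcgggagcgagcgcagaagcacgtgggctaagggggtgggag
Sema6d, second start, chr2:124653331-124653580, plus strand: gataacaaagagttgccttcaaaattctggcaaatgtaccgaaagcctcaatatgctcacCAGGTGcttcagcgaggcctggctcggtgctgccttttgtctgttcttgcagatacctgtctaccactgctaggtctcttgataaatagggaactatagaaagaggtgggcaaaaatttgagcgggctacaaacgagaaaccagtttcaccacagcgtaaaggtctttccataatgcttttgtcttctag
Epha1, chr6:42373269-42373518, minus strand: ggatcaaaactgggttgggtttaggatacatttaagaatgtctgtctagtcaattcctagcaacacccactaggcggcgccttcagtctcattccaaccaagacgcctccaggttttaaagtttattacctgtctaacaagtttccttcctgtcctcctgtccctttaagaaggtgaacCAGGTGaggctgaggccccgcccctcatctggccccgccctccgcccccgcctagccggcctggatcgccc

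The Sema6d match begins at position -190 from its second start and the Epha1 match at position -71. The Sema3c stretch has 78.4% G and C with 39 CG pairs, against 48.0% and 7 in Sema3e, and medians of 52.4% and 6 over all windows. A match is a run of letters and not a bound site, and its absence concerns these windows alone.

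The plexins are the signalling receptors of semaphorins. By their brightest probe sets, 0 of 8 measured genes were past 2-fold after induction, against 4.98% of all measured genes. In Flk1+ against Snail-induced Flk1- cells 2 of 8 were higher (25%, against 4.85%) and 0 lower (against 4.89%). Plxnd1, the endothelial receptor of Sema3e, gave 205, 163 and 571, high in the Flk1+ array and lower in both Flk1- arrays. It was 3.37-fold higher in Flk1+ than in Snail-induced Flk1- cells. Plxnc1, the receptor of Sema7a, gave 119, 125 and 365 and was 2.77-fold higher there. Of its other probe sets, 2 gave 56.6, 119 and 382, and 8.49, 7.17 and 104, with log2 differences of 1.61 and 2.77 for the gate and 0.95 and -0.11 for induction. Another, at 5.88, 20.4 and 39.2, gave 0.71 for the gate, short of 2-fold, and 0.96 for induction. The remaining ones were under the floor on every array.

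B plexins split. Plxnb2 gave 439, 741 and 882, with a log2 difference of 0.74 for induction, and Plxnb1 gave 475, 330 and 283, at -0.51. Plxnb3 stood at 56.2, 33.2 and 65.1. The A plexins, which pair with neuropilins or bind class 6 semaphorins directly, were within 2-fold by their brightest probe sets. Plxna1 gave 862, 889 and 1037, Plxna3 185, 149 and 141, and Plxna2 103, 124 and 111. The second Plxna2 probe set, at 21.0, 12 and 33.6, gave 1.001 for the gate against -0.14. The second Plxna3 probe set gave 134, 77.8 and 51.4, a log2 difference of -1.23 between Flk1+ and untreated cells. Plxna4 was under the floor on every array.

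Slit3, a secreted ligand, and Robo1, a receptor of Slits, were lowest in untreated cells. Slit3 gave 59.6, 136 and 126 and was 2.11-fold higher after induction, although centring of the arrays put it at 0.98 log2 units. Slit2 gave 117, 210 and 239, at 0.79 for induction, and Slit1 was level at 59.8, 61.4 and 66.7. Robo1 gave 393, 739 and 809, 1.86-fold higher after induction and 2.03-fold higher in Flk1+ than in untreated cells. Its other 2 probe sets, near or under the floor, had the opposite sign, at -0.27 and -0.62 for induction, and the mean of all 3 gave 0.16 for Flk1+ against untreated cells. Robo4, the endothelial Robo, gave 1, 11.2 and 30.4, so it reached the floor in the Flk1+ array alone and was at least 1.19-fold higher there. Robo3 gave 22.9, 28.9 and 19.2, and Robo2 was under the floor.

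None of the 4 measured netrins, the secreted ligands, was counted as higher or lower. Of all measured genes, 4.98%, 9.74% and 14.5% were past 2-fold in the 3 comparisons. Of 3 measured Unc5 receptors, 1 was higher in Flk1+ than in Snail-induced Flk1- cells (33.3%, against 4.85% of all measured genes). Ntn1 gave 49.0, 57.7 and 25.4, and was -0.95 on the log2 scale for the Flk1 gate, short of the threshold, although against the floor, which the Flk1+ value did not reach, it was at least 2.26-fold lower in Flk1+ than in Snail-induced Flk1- cells. Ntn4 gave 49.6, 49.8 and 43.6, Ntn5 35.1, 27.5 and 35.0, and Ntn3 24.4, 20.2 and 27.6. Unc5b, a repulsive netrin receptor of endothelial tip cells, was bright on every array at 1211, 1109 and 1913, with a log2 difference of 0.78 for the Flk1 gate and 0.98 by its second probe set. Unc5c gave 33.3, 15.8 and 73.2. Snail-induced Flk1- cells lay under the floor and Flk1+ cells were at least 2.86-fold higher, and its second probe set (17.1, 6.69 and 52.8) had the same signs. Unc5a gave 22.1, 27.9 and 14.8, and Unc5d was under the floor on every array. The prefix-sharing genes Unc50 (909, 976 and 916) and Unc5cl (36.7, 27.5 and 22.0) were within 2-fold, and Plxna4os1 was under the floor.

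Setting ligands beside their known receptors shows which side differed. From untreated Flk1- to Flk1+ cells, Sema3e was 2.73-fold lower and its receptor Plxnd1 2.70-fold higher, and the lower ligand was already seen in Snail-induced Flk1- cells while the higher receptor was not. Ephb4 was 2.78-fold higher and its ligand Efnb2 1.19-fold higher. Plxnc1 was 2.90-fold higher and Sema7a 1.12-fold higher. For Sema6d and its receptor Plxna1 the brightest Sema6d probe set was at least 46.5-fold higher, with the other 3 within 2-fold, and Plxna1 was at 1.20-fold. Slit2, Slit3 and Robo1 stood at log2 differences of 0.97, 0.97 and 1.02. Whether ligand and receptor meet in these cultures was not measured.

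**Figure D4:**
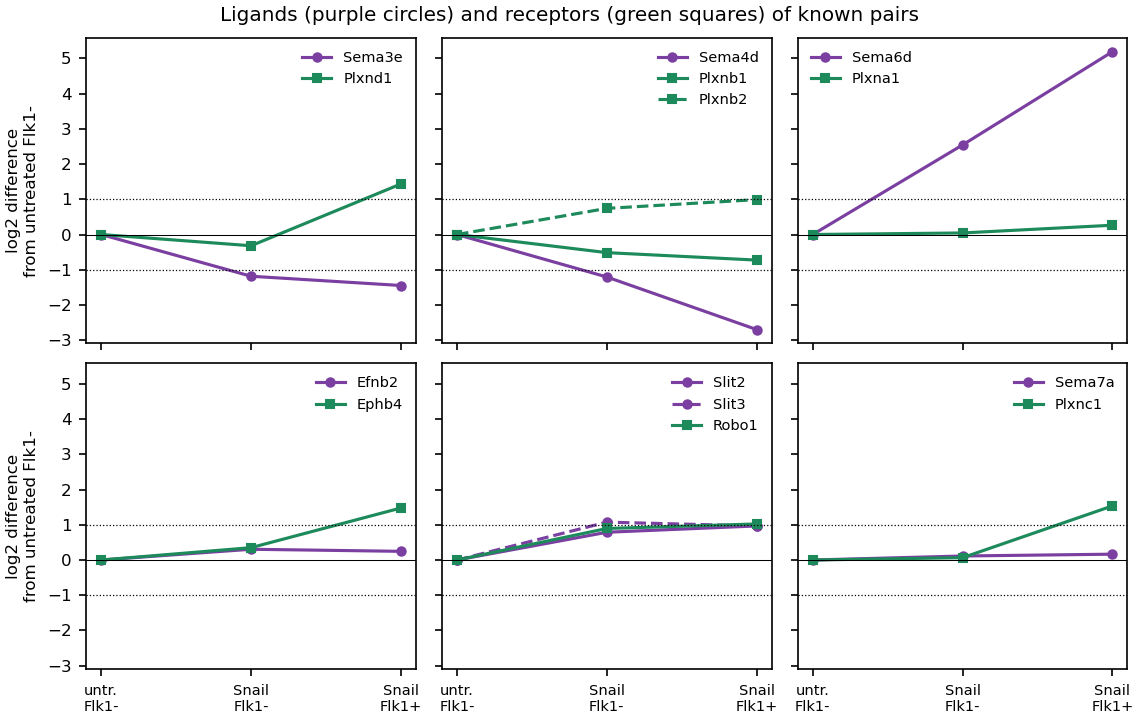
Log2 difference from the untreated Flk1- array (y axis) on the 3 arrays for known ligand and receptor pairs, ligands as purple circles and receptors as green squares, with dotted lines at 2-fold. Plxnd1, Ephb4 and Plxnc1 reach 1.44, 1.48 and 1.54 in the Flk1+ array, where Sema3e lies at -1.45 and Sema6d at 5.19.

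Genes that work with these receptors were read from a list of 54 co-receptors, adaptors and effectors, of which 51 were measured. The list was chosen with earlier results of these data known, so its counts are descriptions only. After induction 3 were higher and 4 lower (median 0.26), against 2.95% and 2.03% of all measured genes. In Flk1+ against Snail-induced Flk1- cells 13 were higher and 2 lower (median 0.32), against 4.85% and 4.89%. Flk1+ against untreated cells gave 14 higher and 4 lower (median 0.50), against 8.10% and 6.41%. Lrrc4c (12, 9.78 and 40.5), among the 13 and the 14, reached the floor in the Flk1+ array alone. Dscam, among the 13 and the 4 lower after induction, gave 39.4, 8.81 and 41.5. Against the floor, Lrrc4c and Dscam were at least 1.59-fold and 1.62-fold higher in Flk1+ than in Snail-induced Flk1- cells. Dscam was at least 1.54-fold lower after induction. Nrp1, the co-receptor of class 3 semaphorins and of VEGF, gave 12.6, 25.7 and 287. It was 8.43-fold higher in Flk1+ than in Snail-induced Flk1- cells, and 2 further probe sets gave 1.84 and 2.16 on the log2 scale. Nrp2 was highest in untreated cells, at 194, 133 and 136. The netrin receptors Dcc (68.5, 41.6 and 44.5) and Neo1 (1061, 1126 and 954) were within 2-fold.

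Flrt3, a membrane protein that binds Unc5 receptors, gave 75.0, 261 and 552, which is 3.20-fold higher after induction and a further 2.07-fold higher in Flk1+ cells. Its second probe set gave log2 differences of 1.46 for induction and 0.62 for the gate, the latter short of 2-fold. Flrt2, also an Unc5 ligand, gave 16.7, 34.5 and 97.0 and was 2.42-fold higher in Flk1+ than in Snail-induced Flk1- cells. Its other probe sets gave 0.06 and 0.68 on the log2 scale there, short of 2-fold. Effectors inside the cell were among the 13 genes higher in Flk1+ than in Snail-induced Flk1- cells, which are the 2 arrays behind the next folds. Vav3, an exchange factor used by Eph receptors, gave 61.1, 59.3 and 462 (6.85-fold), and Tiam1, another exchange factor, gave 369, 503 and 1749 (3.43-fold). Farp1, an exchange factor of the plexin pathway, gave 238, 339 and 1060, a 3.07-fold difference. Arhgef12, which binds B plexins, gave 385, 465 and 1171, and Fyn, a kinase of ephrin and plexin signalling, gave 479, 514 and 1336, at 2.49-fold and 2.57-fold. Adam10, the protease that sheds ephrins, gave 568, 858 and 1942, a 2.25-fold difference. Further measured probe sets gave log2 differences of 2.16 and 1.76 for Vav3, 1.36 for Fyn, 1.24 and 0.51 for Arhgef12, and 0.90 and 0.39 for Adam10. Those of Tiam1 and Farp1 were under the floor.

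Lower members of the list included Met, the HGF receptor that pairs with B plexins, at 302, 128 and 29.4, which is 2.27-fold lower after induction and 3.53-fold lower again in Flk1+ cells. The second Met probe set gave log2 differences of -0.72 and -0.86 for these steps, short of 2-fold. Dpysl3, a collapsin response mediator, gave 370, 156 and 499, lowest in Snail-induced Flk1- cells. It was 2.29-fold lower after induction and 3.07-fold higher in Flk1+ than in Snail-induced Flk1- cells. Its other probe sets gave log2 differences of -0.74 and -0.93 for induction and 0.77 and 0.72 for the gate, short of 2-fold. Dpysl5, a relative of Dpysl3, gave 161, 61.6 and 79.1. Gap43, a growth cone protein, gave 24.7, 119 and 251, at least 4.64-fold higher after induction (1.90 on the log2 scale). The remaining genes past 2-fold in a comparison were Ntng1, Lrrc4c, Dscam, Srgap2, Srgap3, Dpysl4, Farp2, Ngef and Cntn2. Of these Srgap3, a Robo effector, was 2.12-fold higher after induction (75.3, 170 and 113, or 1.08 on the log2 scale, against 0.33 by its second probe set). Cntn2, an axonal adhesion protein, was 2.28-fold lower in Flk1+ than in Snail-induced Flk1- cells (124, 142 and 57.0), while its other 2 measured probe sets gave log2 differences of 0.05 and 0.0065.

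**Figure D5:**
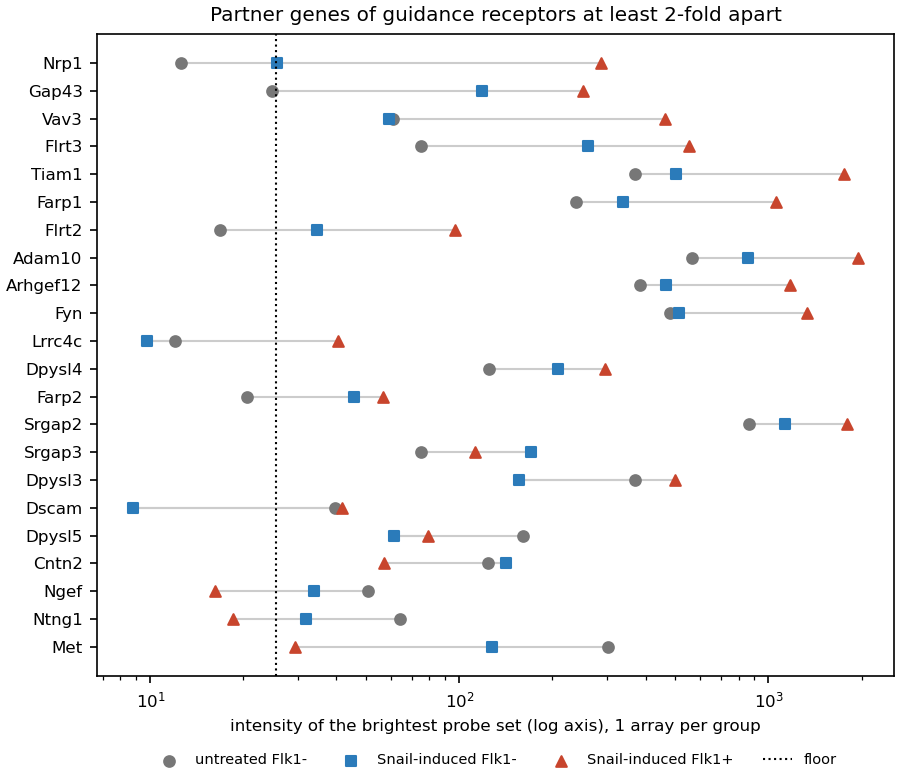
Intensity of the brightest probe set (log axis) on the 3 arrays for the 22 listed partner genes at least 2-fold apart in any comparison, with the floor of 25.6 dotted and genes ordered by their difference between Flk1+ and untreated Flk1- cells. Nrp1 at the top runs from 12.6 to 287, and Met at the bottom from 302 to 29.4.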

How the data were processed

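The authors deposited an intensity for every probe set of each array; the values, from 0.5 to 18191, are linear. Per the labels' protocols, biotinylated cRNA was made from 2 ug total RNA by the standard Affymetrix procedure; how probes were summarised and scaled, and with which software, is not stated there. Of 45037 probe sets, 34945 carried 1 symbol in the platform annotation, 932 several and 9160 none. Probe sets with 1 symbol were kept, with symbols updated through Entrez IDs to the GRCm38.p6 RefSeq table (204 had no match). The columns had medians of 42.7, 42.4 and 44.6 and were used as deposited. Offset and floor were the 20th and 40th percentiles of all values, and a gene's brightest probe set had the highest mean log2 value. The number of arrays, 1 per group, limits the precision, so sizes are given with no test; a 2-fold rule replaced tests, and the counting step was tested on simulated data.

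Every guidance gene was accounted for, and those past 2-fold in any comparison are named with their 3 values, as are the 3 brightest others of each family; partner genes were named where past 2-fold, and Nrp2, Dcc and Neo1 were picked after their values were seen. The members, partner and marker lists were chosen with earlier results of these data known and come from textbook knowledge. Alternatives were quantile normalisation, centring, the mean of all probe sets, leaving out _s_at and _x_at probe sets, no floor, a floor at the 60th percentile, values raised to the floor, an offset of 1 and a 3-fold threshold. Calculations used Python 3.11.15, numpy 2.4.6 and pandas 2.3.3.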

Additional observations from a re-analysis of the deposited data

How the results depend on the processing

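The 35 calls of guidance genes at 2-fold over the 3 comparisons had 0 changes of sign where they had a value under the 8 alternatives other than the 3-fold threshold, and 19 of them stayed past 2-fold in each. Another, Unc5c for the Flk1 gate, was not lost but had no value with the floor at the 60th percentile, nor did Epha3 and Robo4. Of the 15 lost at least once, 12 were lost with the mean of all probe sets, which averages in dim ones. That mean gave 4 genes higher and 0 lower after induction, and 2 lower in Flk1+ against Snail-induced Flk1- cells. With a 3-fold threshold, induction gave 2 higher and 0 lower, the Flk1 gate 3 higher and 1 lower, and Flk1+ against untreated cells 3 higher and 2 lower. The higher ones include Unc5c for the gate and Robo4 for Flk1+ against untreated cells. Against the floor, these were at least 2.86-fold and 1.19-fold higher, so 3-fold is not shown for them. The ligand median for induction was 0.41 with the floor at the 60th percentile, where the cause was not tested. Leaving out the genes outside the ligand and receptor families, chosen after seeing the data, changed none of the 6 counts. Epha3 and Robo4 were not 2-fold apart (0.15 and 0.19) with values raised to the floor. No paired analysis was possible because each group had 1 array. Dim genes near the floor have only bounds.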

Other observations

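Of the class 3 semaphorins, 4 share a chromosome. On GRCm38.p6, Sema3d, Sema3a, Sema3e and Sema3c lie on chromosome 5 within 5.35 Mb, Sema3e at chr5:14025276-14256689 and Sema3c at chr5:17574816-17730268. Sema3c and Sema3e were the members of class 3 at least 2-fold lower after induction, while Sema3a and Sema3d were under the floor, and Sema3b and Sema3f lie on chromosome 9. Robo4 (chr9:37401902-37414023) and Robo3 (chr9:37416045-37433436) are neighbours. Robo4 was highest in the Flk1+ array, at 30.4, and Robo3 lowest there, at 19.2, both close to the floor. Sema6d spans chr2:124089943-124667789 and has 2 RefSeq starts in the promoter table.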
